A study of Mus musculus with 37 samples.

Results

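Imprinted growth genes are genes that mammals transcribe mainly from the copy inherited from 1 parent and that act on the growth of the fetus. The 10 genes named at the outset were Igf2, H19, Dlk1, Meg3, Peg3, Mest, Plagl1, Grb10, Igf2r and Cdkn1c, taken by name under a rule that uses no measured value. A gene was read through a probe set annotated to it alone, which gave 9 measured genes of 19938 in all, each with 1 probe set. H19 had no such probe set and was not analysed here. Paternally expressed genes of this kind (Igf2, Dlk1, Peg3, Mest, Plagl1) tend to favour fetal growth, and maternally expressed ones (H19, Meg3, Grb10, Igf2r, Cdkn1c) tend to restrain it. Many of them have been described as a network whose RNA is high in fetal organs and is turned down after birth as organs stop growing, and in the fetal lung Igf2 is known from the mesenchyme. The array reads RNA from both parental copies together, so it carries no information on which copy was transcribed.

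Inbred strains of mice without any engineered allele or treatment were compared, A/J and C57BL/6J (B6), which differ in length of gestation. Lungs were taken at intervals of a day, in A/J from E15.5 to E20.5 and in B6 from E15.5 to E18.5, and in each strain once more on the day of birth, called PN0. Each of the 12 groups held 3 replicates, and each replicate was RNA from whole right lungs of 3 males of a litter, so that a replicate stands for a litter. B6 pups are born a day before A/J pups, so the strains were not of equal age at PN0. In A/J, E20.5 and PN0 lie hours apart on either side of birth, whereas in B6 the interval from E18.5 to PN0 is about a day and includes the end of gestation, so a B6 change over it cannot be placed before or after birth.

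All values are log2 intensities after robust multichip averaging, a difference of 1 is a fold of 2, and levels of different genes are not compared with each other because probe sets differ in brightness. Differences with an adjusted p under 0.05 in limma, adjusted over 21789 probe sets, are called. Of the 37 arrays, 1 was an extra array of B6 at E18.5, titled 2b, and it was averaged with array 2, with which it correlated (r = 0.993) as it did with arrays 1 and 3. Markers of neighbouring tissue stood over 1 log2 above the rest of the group in 5 of the 36 replicates. Liver markers did so in 4 of them, esophagus and upper airway markers in 2 (1 of these also high for liver) and heart markers in 1 (also high for liver). These 5 are called flagged replicates. The rule misses groups where several replicates are high. Esophagus and upper airway markers read 7.26 and 7.27 in the 2 flagged for them. Unflagged replicates 2 and 3 of A/J at E20.5 read 7.16 and 7.13, and those of A/J at E18.5 ranged from 6.87 to 7.18. Fits without the 5 still hold such replicates. The median of all probe sets tested lay 0.12 higher in A/J at E18.5 than at E17.5, and B6 minus A/J at E18.5 was -0.13, so differences that involve A/J at E18.5 are to be read relative to these shifts. After each array was centred on its median, the share of called probe sets that were lower went from 87.2% to 65.1% for B6 minus A/J at E18.5, from 14.6% to 44.1% for the A/J step into E18.5 and from 83.9% to 66.1% for the step out of it. In whole lung, fewer cells of a type and less RNA per cell cannot be told apart.

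Sequences of 3 places are shown, and no measured value was tested against them. Meg3, whose start is shown, was the 1 measured gene that rose in both strains. Peg3, whose start is also shown, had RNA that fell in the fetus and rose into PN0. The remaining place is the microRNA that lies within Mest. All 3 are RefSeq sequence of build GRCm38.p6, written 5′ to 3′. The Meg3 window holds the 250 bases before its first annotated start (chr12:109540746-109540995, plus strand), with the cAMP response element TGACGTCA, the same on both strands, in capitals. The Peg3 stretch is on the minus strand at chr7:6730602-6730631, with GGGGCCCC in capitals. The microRNA arms lie on the plus strand at chr6:30741314-30741336 and chr6:30741354-30741375, and their seed, bases 2 to 8, is in capitals.
Meg3: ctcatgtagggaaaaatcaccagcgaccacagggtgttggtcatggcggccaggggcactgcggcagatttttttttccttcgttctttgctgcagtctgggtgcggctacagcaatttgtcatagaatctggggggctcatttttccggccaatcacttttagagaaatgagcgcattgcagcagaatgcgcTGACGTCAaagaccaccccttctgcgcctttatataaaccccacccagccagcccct
Peg3: gactctgcttgGGGGCCCCtaacactgact
mmu-miR-335-5p: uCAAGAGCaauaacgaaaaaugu
mmu-miR-335-3p: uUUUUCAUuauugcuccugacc

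GGGGCCCC is the motif known for the zinc finger protein of Plagl1 and is its own reverse complement. Of the 15 RefSeq promoter windows of 8 measured genes, each 250 bases before to 50 after a start, 1 window held it, that of Peg3, with its first base at -201. Over all genes 354 of 32851 windows (1.08%) held it. TGACGTCA was searched for after the windows had been read, and 2 of the 8 genes held it, Meg3 at -57 and Peg3 at -178, against 2.03% of all genes with a window. The Peg3 stretch also lies within the annotated Usp29 gene. Matches are letters only and say nothing of binding. CpG dinucleotides numbered 45 in the second Grb10 window, more than in 98.1% of all windows, 34 in that of Igf2r and 26 in that of Plagl1, against a median of 7, whereas the second Meg3 window had 1.

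Between E15.5 and PN0, all 9 measured genes differed in each strain, and they did not move as 1 block. In both strains Igf2, Mest, Plagl1, Grb10, Igf2r and Cdkn1c fell and Meg3 rose. Dlk1 and Peg3 fell in A/J and rose in B6. In A/J, 8 of the 9 were lower (25.8% of all probe sets were) and 1 was higher (25.2%). In B6, 6 were lower (26.6%) and 3 were higher (24.4%). The 6 genes lower in both strains stand beside 21.3% of all probe sets. The median of the 9 differences was -0.84 in A/J and -0.75 in B6, where the median of all probe sets was -0.04 and -0.003.

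By the F test over all ages (adjusted p under 0.01), every one of the 9 genes varied with age in A/J and in B6, as did 60% and 51.8% of all probe sets. With a fold of 2 between the highest and the lowest age also required, 3 of the 9 passed in each strain, Meg3, Grb10 and Cdkn1c (17.8% of all probe sets in A/J and 14.4% in B6). Grb10 spanned a fold of 4.01 in A/J and 4.35 in B6, Meg3 3.91 and 3.51, and Cdkn1c 2.65 and 2.52. The other 6 genes spanned folds of 1.55 to 1.95.

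**Figure D1:**
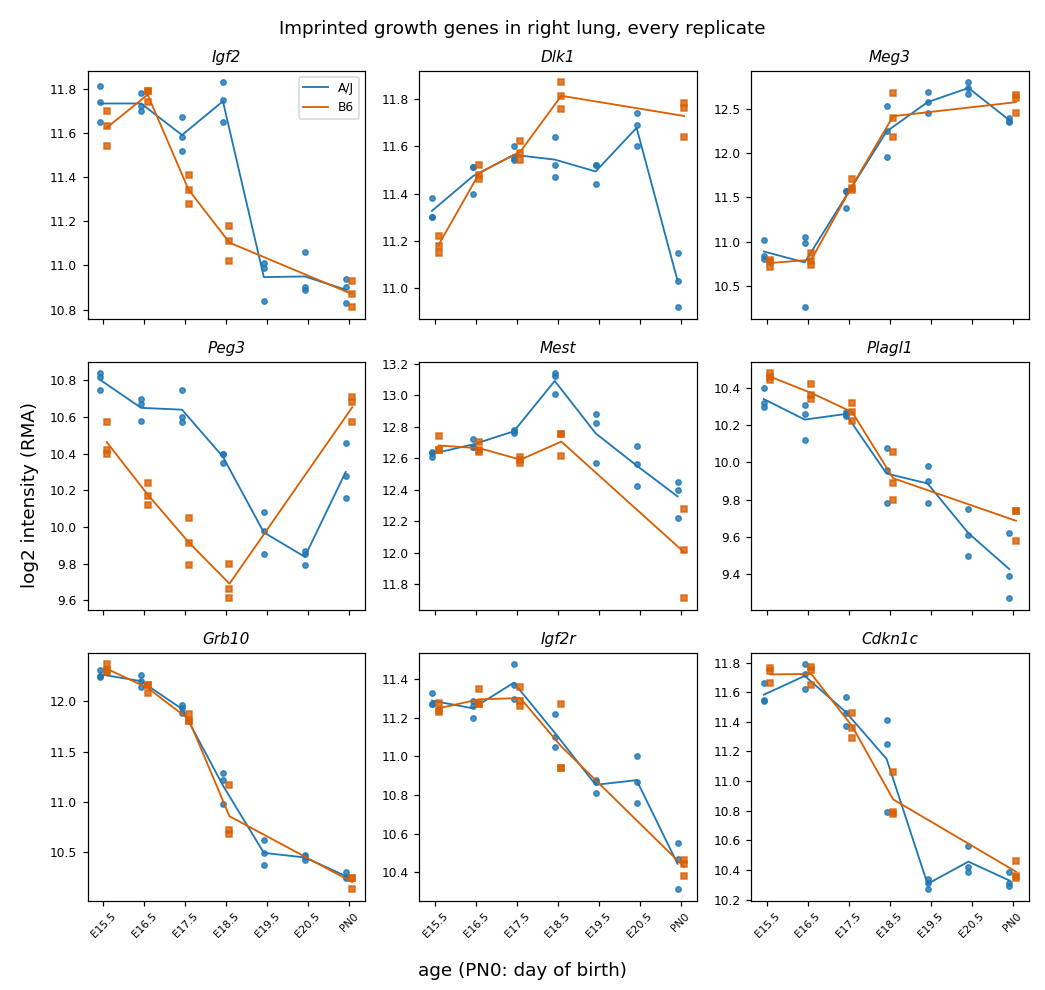
Log2 intensity (vertical axis, a separate scale in each panel) of the 9 measured genes against age (horizontal axis) in A/J (blue circles) and B6 (orange squares); each point is a replicate and lines join group means. Grb10 falls from group means of 12.27 (A/J) and 12.32 (B6) at E15.5 to 10.26 and 10.20 at PN0, Meg3 rises in both strains, Dlk1 is lower at PN0 than at E20.5 in A/J, and Peg3 falls to the last fetal age and is higher at PN0.

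**Figure D2:**
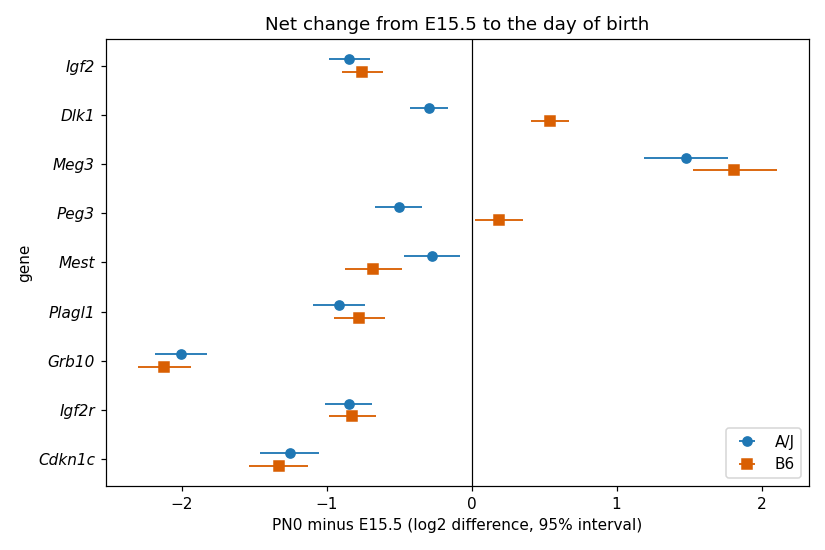
PN0 minus E15.5 on the log2 scale (horizontal axis) for each gene (vertical axis) in A/J (blue circles) and B6 (orange squares), with 95% intervals from limma; filled points passed an adjusted p under 0.05. Igf2, Mest, Plagl1, Grb10, Igf2r and Cdkn1c lie left of 0 in both strains, Meg3 lies right of 0 in both, and Dlk1 and Peg3 lie on opposite sides of 0 in the strains.

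Igf2 encodes insulin-like growth factor 2, the main Igf ligand of the fetus. Its RNA held its level to E18.5 in A/J and then fell by 0.80 in 1 day, whereas in B6 it had already begun to fall between E16.5 and E17.5. In A/J the replicates read 11.81, 11.65 and 11.74 at E15.5, then 11.70, 11.78 and 11.72 at E16.5, then 11.58, 11.67 and 11.52 at E17.5 and 11.75, 11.83 and 11.65 at E18.5. They read 10.99, 11.01 and 10.84 at E19.5, 11.06, 10.90 and 10.89 at E20.5 and 10.83, 10.90 and 10.94 at PN0. Every A/J replicate up to E18.5 lay above every one from E19.5 on, and within each of these stretches neighbours in level overlapped apart from E16.5 and E17.5. In B6 the replicates were 11.63, 11.70 and 11.54 at E15.5, then 11.79, 11.74 and 11.79 at E16.5, then 11.28, 11.34 and 11.41 at E17.5, 11.18, 11.02 and 11.11 at E18.5 and 10.81, 10.93 and 10.87 at PN0. No neighbouring groups of B6 overlapped with arrays 2 and 2b averaged. Array 2 of B6 at E18.5 read 10.80 by itself, below every PN0 replicate, and array 2b read 11.24. From E15.5 to PN0 the gene fell by 0.84 ± 0.07 (SE) in A/J, a fold of 1.79, and by 0.75 ± 0.07 in B6, a fold of 1.69. The A/J step from E18.5 to E19.5 was -0.80 (adjusted p = 2.69e-09). The B6 steps were -0.43 into E17.5 (adjusted p = 6.6e-05), -0.24 into E18.5 (adjusted p = 0.0118) and -0.23 into PN0 (adjusted p = 0.0118). The B6 step into PN0 was not called without array 2b (-0.16, adjusted p = 0.159).

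Igf2r encodes the mannose 6-phosphate receptor that takes Igf2 up for breakdown, and its RNA fell late, mostly from E17.5 on. A/J replicates were 11.33, 11.27 and 11.27 at E15.5, then 11.29, 11.26 and 11.20 at E16.5, then 11.48, 11.37 and 11.30 at E17.5 and 11.22, 11.05 and 11.10 at E18.5. Later ones were 10.87, 10.81 and 10.88 at E19.5, 10.87, 10.76 and 11 at E20.5 and 10.55, 10.47 and 10.31 at PN0. The PN0 replicates of A/J lay below all others of the strain. In B6 the values were 11.23, 11.24 and 11.28 at E15.5, then 11.27, 11.27 and 11.35 at E16.5, then 11.36, 11.26 and 11.29 at E17.5, 10.94, 11.28 and 10.94 at E18.5 and 10.46, 10.38 and 10.44 at PN0. Replicate 2 of B6 at E18.5, the mean of arrays 2 (11.46) and 2b (11.09), stood above the other 2 of its group and among the earlier ages. The net fall was -0.85 ± 0.08 (SE) in A/J (adjusted p = 8.38e-11) and -0.82 ± 0.08 in B6 (adjusted p = 1.58e-10). It fell by 0.43 between E20.5 and PN0 in A/J and by 0.63 between E18.5 and PN0 in B6. Strain made no called difference at any shared age, and over these ages B6 minus A/J was -0.03, with a 95% interval of -0.10 to 0.04.

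Grb10 encodes an adaptor that binds the insulin and Igf1 receptors and restrains their signal. It showed the largest net fall of the 9 genes in both strains. In A/J the replicates read 12.25, 12.31 and 12.24 at E15.5, then 12.26, 12.20 and 12.14 at E16.5, then 11.96, 11.93 and 11.88 at E17.5 and 11.22, 11.29 and 10.98 at E18.5. After that they were 10.49, 10.37 and 10.62 at E19.5, 10.47, 10.45 and 10.42 at E20.5 and 10.24, 10.30 and 10.25 at PN0. The means went down at every A/J age, and the steps into E16.5, E20.5 and PN0 were not called. In B6 the replicates read 12.31, 12.37 and 12.29 at E15.5, then 12.16, 12.08 and 12.16 at E16.5, then 11.80, 11.80 and 11.87 at E17.5, 10.72, 11.17 and 10.68 at E18.5 and 10.24, 10.13 and 10.24 at PN0. No neighbouring B6 groups overlapped, although the step into E16.5 was not called, and replicate 2 at E18.5 stood above the other 2; its arrays 2 and 2b read 11.43 and 10.91. From E15.5 to PN0, Grb10 fell by 2 ± 0.09 (SE) in A/J, a fold of 4.01, and by 2.12 ± 0.09 in B6, a fold of 4.35 (adjusted p = 3.44e-18 and 1.23e-18). The steepest steps were those into E18.5, -0.76 in A/J and -0.97 in B6.

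Cdkn1c encodes a cyclin-dependent kinase inhibitor that takes cells out of the cycle. Its group means ran close to those of Grb10 (r = 0.98 over the 12 groups, which share ages and litters). A/J values were 11.54, 11.55 and 11.66 at E15.5, then 11.72, 11.79 and 11.62 at E16.5, then 11.37, 11.57 and 11.46 at E17.5 and 11.41, 11.25 and 10.79 at E18.5. From E19.5 they were 10.31, 10.34 and 10.27, then 10.42, 10.56 and 10.39 at E20.5 and 10.29, 10.31 and 10.39 at PN0. Replicate 3 of A/J at E18.5 lay lower than the other 2 of its group, which overlapped with E17.5. B6 values were 11.66, 11.76 and 11.74 at E15.5, then 11.77, 11.65 and 11.75 at E16.5, then 11.29, 11.36 and 11.46 at E17.5, 10.79, 11.06 and 10.78 at E18.5 and 10.35, 10.36 and 10.46 at PN0. The level was near its lowest by E19.5 in A/J, and the steps after that were not called. It fell by 1.25 ± 0.10 (SE) in A/J and by 1.33 ± 0.10 in B6, folds of 2.38 and 2.51. In A/J the step from E18.5 to E19.5 was -0.84 (adjusted p = 2.7e-07), and in B6 the steps into E17.5, E18.5 and PN0 were -0.35, -0.49 and -0.49.

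Plagl1 encodes a zinc finger transcription factor that has been placed upstream of several genes of this network, Igf2 and Cdkn1c among them. A/J replicates read 10.40, 10.30 and 10.32 at E15.5, then 10.12, 10.26 and 10.31 at E16.5, then 10.27, 10.25 and 10.26 at E17.5 and 10.08, 9.96 and 9.78 at E18.5. At E19.5 they read 9.90, 9.78 and 9.98, at E20.5 9.5, 9.75 and 9.61 and at PN0 9.62, 9.39 and 9.27. Only the A/J step into E18.5 was called (-0.32, adjusted p = 0.00555). B6 replicates read 10.44, 10.48 and 10.46 at E15.5, then 10.34, 10.36 and 10.42 at E16.5, then 10.27, 10.22 and 10.32 at E17.5, 9.80, 10.06 and 9.89 at E18.5 and 9.58, 9.74 and 9.74 at PN0. The B6 groups stood in the order of age with no overlap between neighbours. The net fall was -0.91 ± 0.09 (SE) in A/J and -0.77 ± 0.09 in B6. The B6 step into PN0 (-0.23, adjusted p = 0.0489) lost its call in 26 of the 36 fits that left out 1 replicate.

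Dlk1 and Meg3 are neighbours on chromosome 12 and share 1 imprinted domain. Dlk1 encodes a transmembrane protein related to Notch ligands, known from fetal mesenchyme and from the control of fat cell formation. In A/J its RNA held a plateau from E16.5 to E20.5 and fell at birth to below its E15.5 level. A/J replicates were 11.30, 11.30 and 11.38 at E15.5, then 11.51, 11.51 and 11.40 at E16.5, then 11.55, 11.54 and 11.60 at E17.5 and 11.47, 11.52 and 11.64 at E18.5. They were 11.52, 11.52 and 11.44 at E19.5, 11.74, 11.60 and 11.69 at E20.5 and 10.92, 11.03 and 11.15 at PN0. All 3 PN0 replicates lay below every other A/J replicate. B6 replicates were 11.18, 11.22 and 11.15 at E15.5, then 11.48, 11.52 and 11.46 at E16.5, then 11.57, 11.54 and 11.62 at E17.5, 11.81, 11.76 and 11.87 at E18.5 and 11.76, 11.78 and 11.64 at PN0. In B6 the groups at E18.5 and PN0 overlapped, and both lay above all earlier ages. Between the last fetal age and PN0, Dlk1 fell by 0.64 ± 0.07 (SE, adjusted p = 1.46e-08) in A/J, while the B6 difference was -0.09 ± 0.07 (adjusted p = 0.392); these intervals differ in start age and in length, hours in A/J against about a day in B6. The net change was -0.29 in A/J (95% interval -0.43 to -0.16) and 0.54 in B6 (0.41 to 0.68). B6 rose by 0.30 into E16.5 and by 0.24 into E18.5.

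Meg3 is a long noncoding RNA of the maternal copy of that domain, and it went the other way from the genes that fell. In A/J it read 11.02, 10.81 and 10.84 at E15.5, then 10.26, 11.05 and 10.99 at E16.5, then 11.38, 11.57 and 11.57 at E17.5 and 12.25, 11.95 and 12.53 at E18.5. It read 12.58, 12.69 and 12.45 at E19.5, 12.73, 12.67 and 12.80 at E20.5 and 12.36, 12.35 and 12.40 at PN0. Replicate 1 at E16.5 was the lowest of all 36. In B6 it read 10.72, 10.79 and 10.77 at E15.5, then 10.78, 10.87 and 10.74 at E16.5, then 11.71, 11.58 and 11.60 at E17.5, 12.39, 12.18 and 12.68 at E18.5 and 12.62, 12.65 and 12.45 at PN0. The strains overlapped at E16.5 and E18.5 and lay apart at the other shared ages. The steps with a called rise were the same 2 in both strains, into E17.5 (A/J 0.74, B6 0.83) and into E18.5 (0.74 and 0.79). From E15.5 to PN0 it rose by 1.48 ± 0.14 (SE) in A/J and 1.81 ± 0.14 in B6, folds of 2.79 and 3.51. The E20.5 to PN0 difference in A/J was -0.36 (adjusted p = 0.0695) and did not pass. Strain differences of Meg3 passed at none of the 5 shared ages, with B6 minus A/J between -0.13 and 0.20.

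Rian and Rtl1 lie beyond Meg3 in the domain (Rian is a noncoding RNA of the maternal copy and Rtl1 a paternally expressed gene of retrotransposon origin), and both fell at birth in A/J as Dlk1 did. Rian replicates ranged from 7.23 to 7.67 at E20.5 and from 6.03 to 6.36 at PN0 in A/J, and from 7.39 to 8.09 at E18.5 and from 7.06 to 7.24 at PN0 in B6. The groups did not overlap in either strain. Rian fell by 1.27 ± 0.16 (SE, adjusted p = 6.37e-07) in A/J and by 0.61 ± 0.16 (adjusted p = 0.00392) in B6. Rtl1 fell by 0.41 in A/J (adjusted p = 0.0306), with -0.27 in B6 (adjusted p = 0.161). The mean of Rtl1 was 6.27, below the lowest array median of 6.34. Rian was higher in B6 over the shared ages by 0.51 ± 0.07 (adjusted p = 1.3e-06). From E15.5 to PN0 it fell in A/J by 0.64, and the B6 value was -0.01 (adjusted p = 0.956). Begain and Dio3 at the ends of the domain passed no net test. The neighbours of each gene were gathered with the values already known.

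Peg3 encodes a large zinc finger protein expressed from the paternal copy on chromosome 7. It fell through late gestation in both strains and rose between the last fetal sample and PN0. A/J replicates were 10.84, 10.75 and 10.82 at E15.5, then 10.58, 10.70 and 10.67 at E16.5, then 10.75, 10.57 and 10.60 at E17.5 and 10.40, 10.35 and 10.40 at E18.5. Then came 10.08, 9.85 and 9.98 at E19.5, 9.87, 9.79 and 9.85 at E20.5 and 10.46, 10.28 and 10.16 at PN0. All PN0 replicates of A/J stood above all those of E19.5 and E20.5. B6 replicates were 10.57, 10.40 and 10.42 at E15.5, then 10.12, 10.17 and 10.24 at E16.5, then 9.91, 9.79 and 10.05 at E17.5, 9.61, 9.80 and 9.66 at E18.5 and 10.68, 10.71 and 10.57 at PN0. At PN0 the B6 replicates lay at or above the highest of E15.5. The rise into PN0 was 0.46 ± 0.08 (SE, adjusted p = 7.9e-05) from E20.5 in A/J and 0.96 ± 0.08 (adjusted p = 2.33e-10) from E18.5 in B6. It was the 1 measured gene of the 9 to rise into PN0 in either strain (12% of all probe sets rose in A/J and 12.5% in B6). Net, Peg3 fell by 0.50 in A/J, while the B6 rise of 0.19 was near the threshold (adjusted p = 0.0478) and lost its call in 23 of the 36 fits that left out 1 replicate. B6 minus A/J was -0.34 at E15.5, then -0.47 at E16.5, then -0.72 at E17.5 and -0.69 at E18.5, and it was 0.35 at PN0. Replicates of the strains overlapped at none of these ages. A strain by age interaction over the shared ages, PN0 among them, passed (adjusted p = 8.82e-07). The strain difference in the change from E15.5 to E18.5 did not (adjusted p = 0.0568).

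Zim1, a maternally expressed zinc finger gene next to Peg3, was lower in B6 by more than any of the 9 genes. Its A/J replicates ranged from 8.97 to 9.63 and its B6 replicates from 7.57 to 7.80 at E18.5. The B6 minus A/J difference was -1.56 ± 0.15 (SE, adjusted p = 6.29e-09) at that age and -1.01 ± 0.07 over the shared ages. Into PN0 it rose in B6 by 0.68 (adjusted p = 0.000639), with -0.01 in A/J (adjusted p = 0.966). Usp29, which starts on the other side of the Peg3 start, fell by 0.51 (A/J) and 0.38 (B6) from E15.5 to PN0, and its step into PN0 passed in neither strain. Its signal was dim, with a mean of 4.95 where the lowest array median was 6.34.

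Mest encodes a protein of the alpha/beta hydrolase fold expressed from the paternal copy and known from mesoderm and fat. Its RNA rose into E18.5 in A/J and then fell, and in B6 the 1 called step was the fall between E18.5 and PN0. A/J replicates read 12.64, 12.61 and 12.63 at E15.5, then 12.72, 12.67 and 12.67 at E16.5, then 12.77, 12.76 and 12.78 at E17.5 and 13.14, 13.12 and 13.01 at E18.5. Those of E19.5 read 12.82, 12.57 and 12.88, those of E20.5 12.68, 12.56 and 12.42 and those of PN0 12.22, 12.45 and 12.40. The E18.5 replicates of A/J lay above all others of both strains. B6 replicates read 12.65, 12.74 and 12.65 at E15.5, then 12.65, 12.70 and 12.64 at E16.5, then 12.61, 12.57 and 12.59 at E17.5, 12.75, 12.62 and 12.75 at E18.5 and 11.71, 12.02 and 12.28 at PN0. The B6 PN0 replicates spread widely but lay below all earlier ones. The A/J rise into E18.5 was 0.32 (adjusted p = 0.0106), of which 0.12 was the median of all probe sets, and it was not called after arrays were centred (0.21, adjusted p = 0.131). In B6, Mest fell by 0.70 ± 0.10 (SE, adjusted p = 1.27e-06) from E18.5 to PN0. The net fall was -0.27 (adjusted p = 0.0171) in A/J, where quantile normalization brought it to -0.05 (adjusted p = 0.725), and -0.68 (adjusted p = 2.9e-07) in B6.

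Copg2, the gene that adjoins Mest, fell by 0.37 (A/J) and 0.54 (B6). It differed between strains over the shared ages, with B6 minus A/J at -0.17 ± 0.04 (SE). The probe set annotated to Mir335, the microRNA gene within Mest whose arms are printed above, was also lower in B6, with -0.32 over the shared ages (adjusted p = 0.00785). At E18.5 its replicates ranged from 6.39 to 7.04 in A/J and from 5.86 to 6.30 in B6, a difference of -0.68 ± 0.21. Its net change from E15.5 to PN0 did not pass in A/J (0.36) or in B6 (-0.41). Group means of this probe set ran from 5.64 to 6.73, near the array medians of 6.34 to 6.54. Mir335 lies within Mest, so RNA of the host gene and of the microRNA precursor cannot be told apart, and levels of the mature arms were not measured.

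**Figure D3:**
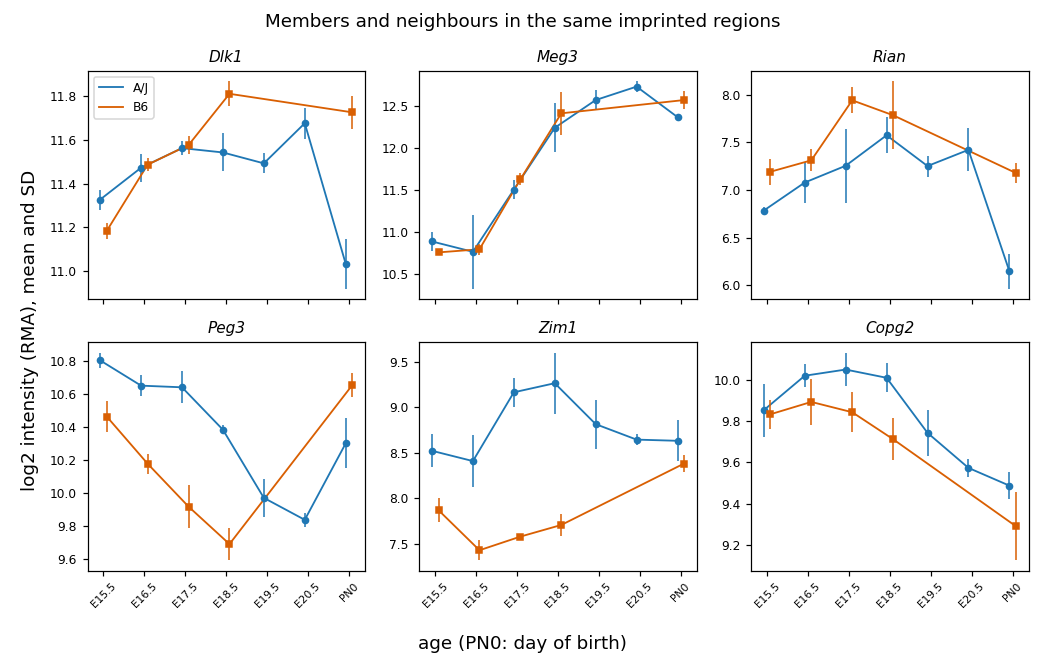
Mean log2 intensity with SD over 3 replicates (vertical axis, a separate scale in each panel) against age (horizontal axis) for Dlk1, Meg3 and Rian of 1 imprinted domain (top), and for Peg3, its neighbour Zim1 and the Mest neighbour Copg2 (bottom), in A/J (blue) and B6 (orange). Dlk1 and Rian fall between E20.5 and PN0 in A/J, and Zim1 of B6 lies below that of A/J at each shared age.

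Near Cdkn1c, genes of the same stretch of chromosome 7 went both ways. Kcnq1, a potassium channel subunit, rose by 0.94 (A/J) and 0.53 (B6). Osbpl5 rose by 0.48 and 0.52, Cd81 by 0.51 and 0.29, and Slc22a18 by 0.30 and 0.43. Nap1l4, which encodes a histone chaperone, fell by 0.71 and 0.80. Airn, the noncoding RNA that runs antisense through Igf2r, had values of -0.18 and -0.13 that did not pass, while Igf2r fell; the array's strand reading of the overlap was not checked. Airn was higher in B6 over the shared ages by 0.32 ± 0.06 (SE, adjusted p = 2.55e-05) and fell in B6 by 0.78 from E18.5 to PN0. Beside Grb10, Ddc fell by 0.38 (A/J) and 0.76 (B6), and Cobl rose by 0.36 and 0.55.

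Apart from Peg3 into E16.5 in B6, every called fall between neighbouring ages lay in a step that ended at E17.5 or later. The only step of each strain that ended earlier was that from E15.5 to E16.5. In A/J none of the 9 genes passed in limma in the step into E16.5 (6.66% of all probe sets did), and at an unadjusted p under 0.05 there was 1, Dlk1. Into E17.5, Meg3 rose (12.7%) and Grb10 fell (15.9%). Into E18.5, 5 genes fell, Peg3, Plagl1, Grb10, Igf2r and Cdkn1c, against 4.56% of all probe sets, and 2 rose, Meg3 and Mest, against 26.8%. Into E19.5, 6 genes fell, Igf2, Peg3, Mest, Grb10, Igf2r and Cdkn1c (23.7%), and none rose (4.56%). Into E20.5 none passed in limma (0.707%), with 3 at an unadjusted p under 0.05, Dlk1, Mest and Plagl1. Into PN0, Dlk1 and Igf2r fell (8.09%) and Peg3 rose. In the steps into E18.5 and out of it, the median of all probe sets moved by 0.12 and -0.10. With arrays centred on their medians, 5 fell and 1 rose into E18.5 and 4 fell and 1 rose into E19.5.

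In B6, Dlk1 rose and Peg3 fell in the step into E16.5 (2 of the 9, against 14.4% in either direction). Into E17.5, 4 genes fell, Igf2, Peg3, Grb10 and Cdkn1c (9.16%), and Meg3 rose (6.49%). Into E18.5, 6 fell, Igf2, Peg3, Plagl1, Grb10, Igf2r and Cdkn1c (11%), and Dlk1 and Meg3 rose (12.7%). From E18.5 to PN0, 6 fell, Igf2, Mest, Plagl1, Grb10, Igf2r and Cdkn1c (14.4%). Without the 5 flagged replicates, the 6 falls of the A/J step into E19.5 became 4 and the 4 falls of the B6 step into E17.5 became 2. Among all probe sets, falls in these steps went from 5172 to 4086 and from 1996 to 1185. The counts of the 9 genes for PN0 minus E15.5 were the same. With arrays centred on their medians, the 6 falls of the B6 step into E18.5 became 3, and 2392 among all probe sets became 1660. With quantile normalization, the B6 step into E17.5 held 1 fall and 2 rises, beside 1920 and 1494 among all probe sets. The fall of Peg3 into E16.5 in B6 and that of Grb10 into E17.5 in A/J were then not called.

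B6 and A/J differed for 5 of the 9 genes over the shared ages (41.8% of all probe sets did). Igf2, Peg3 and Mest were lower in B6, with differences of -0.20 ± 0.03 (SE), -0.38 ± 0.04 and -0.18 ± 0.04. Dlk1 and Plagl1 were higher, by 0.17 ± 0.03 and 0.10 ± 0.04. These means include PN0, where the strains were not of equal age. For Dlk1, B6 minus A/J was -0.14, 0.01, 0.01 and 0.27 from E15.5 to E18.5 and 0.69 at PN0. For Peg3 it lay between -0.72 and -0.34 at the fetal ages and was 0.35 at PN0. The Plagl1 difference (adjusted p = 0.0352) lost its call in 10 of the 36 fits that left out 1 replicate. It also lost its call without the 5 flagged replicates (adjusted p = 0.0609). Meg3, Grb10, Igf2r and Cdkn1c passed no test over the shared ages, with values from -0.10 to 0.08.

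By age, 1 gene differed at E15.5 (2.46%) and 1 at E16.5 (8.09%), Peg3 in each case, and Peg3 and Igf2 differed at E17.5 (10.9%). The Peg3 difference at E15.5 was not called without the 5 flagged replicates. It lost its call in 4 of the 36 fits that left out 1 replicate. At E18.5, 6 of the 9 differed (31.8%): Igf2 (-0.64), Peg3 (-0.69), Mest (-0.39), Grb10 (-0.31) and Cdkn1c (-0.27) were lower in B6 and Dlk1 (0.27) was higher. Of these, Grb10 and Cdkn1c had overlapping replicates and were not called once arrays were centred on their medians, where their differences were -0.22 and -0.185. Markers of esophagus and upper airway had a mean of 7.03 ± 0.15 (SD, n = 3) in A/J and 5.73 ± 0.28 in B6 at that age, and 6 of the 8 were called lower in B6; their part in these differences was not tested. The mean of 24 proliferation genes was 8.60 ± 0.24 in A/J and 8.08 ± 0.18 in B6, and its part was not tested either.

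At PN0, 4 genes differed (19.9%). Dlk1 (0.69, adjusted p = 4.69e-09), Peg3 (0.35) and Plagl1 (0.26) were higher in B6 and Mest (-0.35) was lower. Without the 5 flagged replicates, Dlk1 and Peg3 passed and the values of Plagl1 (0.24, adjusted p = 0.127) and Mest (-0.31, adjusted p = 0.0559) did not. Igf2 differed by -0.02 (95% interval -0.16 to 0.12) and Grb10 by -0.06 (-0.24 to 0.12).

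**Figure D4:**
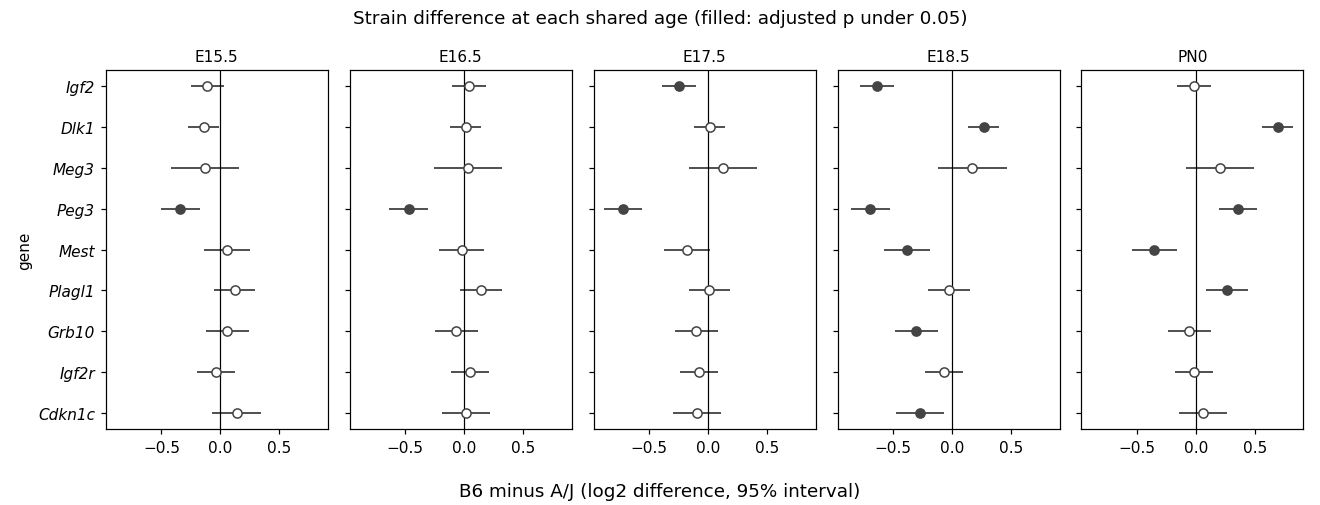
B6 minus A/J on the log2 scale (horizontal axis) for each gene (vertical axis) at the 5 shared ages, with 95% intervals from limma; filled points passed an adjusted p under 0.05. Peg3 lies left of 0 at the 4 fetal ages and right of 0 at PN0, Igf2 reaches -0.64 at E18.5 and lies at -0.02 at PN0, and Dlk1 reaches 0.69 at PN0.

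The courses differed between strains by the F test of interaction for 4 of the 9 genes, Igf2, Dlk1, Peg3 and Mest (16.2%). That test counts PN0 as a shared age, although the strains were not of equal age there. In the single contrast of the change from E15.5 to E18.5, B6 minus A/J, 3 passed (6.32%): Igf2 (-0.53 ± 0.10 SE, adjusted p = 0.00188), Dlk1 (0.41 ± 0.09, adjusted p = 0.00723) and Mest (-0.44 ± 0.13, adjusted p = 0.0455). Peg3 did not pass in this contrast (-0.35 ± 0.11, adjusted p = 0.0568). The median of all probe sets in it was -0.11. For Grb10, Meg3, Igf2r, Plagl1 and Cdkn1c the interaction did not pass (adjusted p = 0.17 to 0.847).

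Birth came a day apart, so groups were also set at equal distance from it. A day before birth, E18.5 in B6 and E19.5 in A/J differed for 4 genes (9.94%), with Dlk1 (0.32), Grb10 (0.36) and Cdkn1c (0.57) higher in B6 and Peg3 (-0.28) lower. Igf2 differed by 0.16 (95% interval 0.01 to 0.30) and Mest by -0.05 (-0.25 to 0.14), and neither passed. Cdkn1c replicates of A/J at E19.5 lay between 10.27 and 10.34 and those of B6 at E18.5 between 10.78 and 11.06, with no overlap. Grb10 went from lower in B6 at equal age (-0.31) to higher in B6 at equal distance from birth (0.36), and its level thus lay between those of A/J at E18.5 and E19.5. A day earlier still, B6 at E17.5 and A/J at E18.5 differed for 6 genes (44.5%): Grb10 (0.66) and Plagl1 (0.33) were higher in B6, and Meg3 (-0.61), Mest (-0.50), Peg3 (-0.47) and Igf2 (-0.40) were lower.

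Of the 36 pairs of genes, 10 had a Pearson r above 0.8 over the 12 group means, and all 10 were pairs among Igf2, Plagl1, Grb10, Igf2r and Cdkn1c, from 0.83 (Igf2 and Plagl1) to 0.98 (Grb10 and Cdkn1c). The weaker of these values were common among all genes. By r with Igf2, Plagl1 ranked 1799 and Igf2r 1685 of the 19937 other genes, and by r with Grb10, Igf2r ranked 1400. The closest pairs ranked nearer the top. By r with Grb10, Cdkn1c ranked 53, and by r with Cdkn1c, Grb10 ranked 11. By r with Plagl1, Grb10 ranked 30, whereas by r with Grb10, Plagl1 ranked 481. Meg3 was opposed to each of these 5 genes, from -0.73 with Igf2r to -0.95 with Grb10. Dlk1 and Mest correlated at 0.004, and Dlk1 and Meg3, neighbours in 1 domain, at 0.40. The 12 means share ages and litters, and most probe sets moved with age, so these values are a description with no p.

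Within groups, where age and strain are removed, fewer pairs were alike. Over the deviations of the 36 replicates from their group means, 7 of the 36 pairs had r above 0.3 and 7 below -0.3. Grb10 and Cdkn1c kept 0.61 and Grb10 and Igf2r 0.57, and Meg3 and Grb10 stood at -0.66. Single replicates at E18.5 weigh on these values. Replicate 2 of B6 was the highest of its group for Grb10 (11.17), Igf2r (11.28) and Cdkn1c (11.06) and the lowest for Meg3 (12.18). Replicate 3 of A/J was the lowest for Grb10 (10.98) and Cdkn1c (10.79) and the highest for Meg3 (12.53). The r without these replicates was not computed. Dlk1 and Plagl1 stood at -0.74, although their group means correlated at -0.09. Igf2 and Igf2r, alike over group means (0.84), stood at -0.35 within groups.

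**Figure D5:**
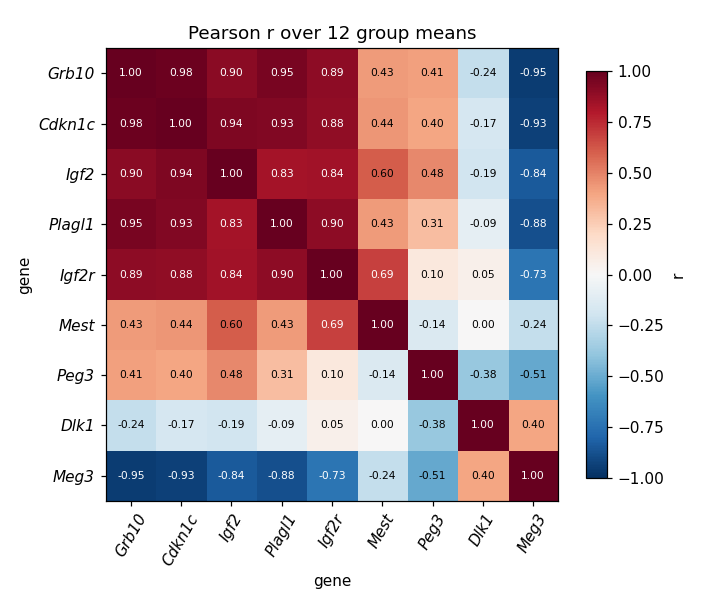
Pearson r over the 12 group means for each pair of the 9 genes, with genes on both axes and r as colour and number (red positive, blue negative). Grb10, Cdkn1c, Igf2, Plagl1 and Igf2r form a block above 0.8, and Meg3 is negative against each of them.

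Of the other 19937 genes, those whose 12 group means were most like Grb10 by Pearson r were Wdr6 (0.998), Nono (0.996) and Snrnp200 (0.993). For Cdkn1c they were Chek2 (0.992), Ect2 (0.988) and Appbp2 (0.985), of which Chek2 encodes a checkpoint kinase and Ect2 a factor for cytokinesis. For Igf2 they were Tada1 (0.978), Idh2 (0.973) and Nek2 (0.973), with Nek2 a mitotic kinase. Igf2r was followed by Robo1 (0.981), Robo2 (0.98) and Glg1 (0.977), of which Robo1 and Robo2 encode receptors of Slit proteins. Plagl1 was followed by Abat (0.982), Gng7 (0.976) and Dock1 (0.972). The rising Meg3 was matched by Abhd5 (0.991), Lims2 (0.989) and Chil1 (0.989). Mest was matched by Tmem14a (0.964), Ift52 (0.959) and Zfp78 (0.958) and Peg3 by Map4k4 (0.934), Mios (0.925) and Nmt2 (0.925). Dlk1 had the weakest nearest genes, Sstr2 (0.926), Vmn1r237 (0.894) and Olfr418 (0.894).

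Of 52 other imprinted genes measured, 13 rose while 22 fell between E15.5 and PN0 in A/J, against 14 and 15 in B6, with medians of -0.18 and -0.11. Over all probe sets 25.2% rose and 25.8% fell in A/J and 24.4% and 26.6% in B6, so the B6 shares and the share that rose in A/J lay near the background. By the mean over both strains, the largest differences among genes called in both were those of Nnat (-2.02 and -1.16), Qpct (1.5 and 1.82), Peg10 (-1.90 and -1.03) and Asb4 (-1.37 and -1.10), with A/J first. Nnat encodes a small membrane protein of neurons and endocrine cells, Peg10 a protein of retrotransposon origin, and Qpct an enzyme that forms pyroglutamate at protein ends.

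Of 19 Igf receptors, binding proteins and mRNA binders, 7 rose while 8 fell in A/J, against 9 and 7 in B6, with medians of 0.10 and 0.27, beside the same shares of all probe sets (25.2% and 25.8% in A/J, 24.4% and 26.6% in B6). The genes of the binding proteins Igfbp6 (3.34 and 3.45), Igfbp7 (3.04 and 2.80) and Igfbp3 (2.02 and 3.30) rose, and Igfbp2 (-1.70 and -2.19) fell. Igfbp6 is known for its preference for Igf2 over Igf1.

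Genes of fetal growth and division also fell. Beside the counts below, 25.8% of all probe sets fell and 25.2% rose in A/J. In B6, 26.6% fell and 24.4% rose. Of 16 genes of the fetal growth program, 13 fell in A/J and 12 in B6 (medians -1.24 and -1.52), among them the growth factor genes Mdk (-2.73 and -2.37) and Ptn (-2.11 and -1.97), the transcription factor gene Mycn (-2.13 and -2.29) and the histone methyltransferase gene Ezh2 (-1.60 and -1.82). All 24 measured proliferation genes fell in both strains (medians -2.93 and -2.55), such as Bub1 (-4.51 and -3.72), Kif11 (-4.22 and -3.48), Top2a (-4.11 and -3.12) and Bub1b (-3.70 and -2.80). The mean of this list went from 10.07 to 7.08 in A/J and from 10.04 to 7.5 in B6. The mean of 14 lung mesenchyme markers went from 9.79 to 9.63 and from 9.87 to 9.42, but single markers moved in opposite directions. At PN0, 8 of these markers were called lower and 6 higher in the A/J strain. The B6 counts were 8 lower, 5 higher and 1 not called. Tcf21 (2.04 and 0.85) was among those with higher values, and Lum (-2.20 and -2.23) among those with lower values. The part of cell division or of the mesenchymal share in the falls of the imprinted genes was not tested. Of 20 genes of imprint maintenance and DNA methylation, 12 fell in A/J and 13 in B6, with Uhrf1 (-3.66 and -3.77) and Hells (-3.24 and -3.61) first and the maintenance methyltransferase gene Dnmt1 (-2.02 and -2.14) and the heterochromatin gene Cbx5 (-1.92 and -2.22) after them.

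The surfactant gene Sftpc, the defining marker of distal lung epithelium, had a mean log2 intensity of 13.62 over all replicates. Of the lung markers, 8 of 10 epithelial markers and 10 of 10 endothelial markers rose in A/J, and 8 and 9 rose in B6. Over all probe sets 25.2% rose and 25.8% fell in A/J, and 24.4% and 26.6% in B6. Sftpb, another surfactant gene, rose by 4.13 (A/J) and 4.26 (B6). Of the lists used as markers of neighbouring tissue, 7 of 9 heart genes rose in A/J and 6 in B6, and 7 of 10 cartilage genes fell in A/J and 8 in B6. Whether this RNA came from the lung or from neighbouring tissue was not tested.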

How the data were processed

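Right lungs of A/J and B6 mice were profiled on Affymetrix Mouse Gene 1.0 ST arrays. The deposited log2 values were made by the authors with robust multichip averaging (RMA) in Expression Console 1.1, which corrects background, normalizes across arrays and summarises probes; array medians still ranged from 6.34 to 6.54. RMA compresses dim signal, so low differences are understated; arrays have no read depth, and their number limits the precision.

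Array 2b of B6 at E18.5 was averaged with array 2, giving 36 replicates in 12 groups named from the labels. Of 35556 probe sets, 21789 with exactly 1 gene symbol were tested, and 1621 with several symbols and 12146 with none were left out; where a gene had several probe sets, that with the highest mean was read. A group-means model was fitted in limma 3.58.1 (R 4.3.3), with contrasts and F tests and Benjamini-Hochberg adjustment over all probe sets tested, after it was tested on simulated data. Contrasts and interactions were called at an adjusted p under 0.05, whereas the F test over ages needed one below 0.01 and a fold of 2. Named were all measured members, from each list up to 4 genes with the largest PN0 minus E15.5 difference (mean of both strains) among those called in both, and for each member the 3 genes most like it; neighbouring genes were named after their values were seen. The members and lists were chosen with earlier results of these data known. Replicates are litters, each pooled from 3 males. Alternatives were other scalings, filters, fits, thresholds, treatments of array 2b, a replicate block and leaving out replicates. Leaving out the 5 replicates flagged for neighbouring tissue, or the 4 of them high for liver markers, was an alternative chosen after seeing the data. Figures were drawn with matplotlib 3.10.9 (Python 3.11.15), and sequences came from RefSeq (GRCm38.p6).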

Additional observations from a re-analysis of the deposited data

Results flagged for a closer look

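The course from E15.5 to E18.5 differed between strains for 3 genes by limma's test of the difference itself. The change in B6 minus that in A/J was -0.53 for Igf2, 0.41 for Dlk1 and -0.44 for Mest (log2), where the median of all probe sets was -0.11. The Mest difference lost its call in 23 of the 36 fits that left out 1 replicate.

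The F test of strain by age over the 5 shared ages passed for Igf2 (adjusted p = 0.000129), Dlk1 (adjusted p = 2.02e-06), Peg3 (adjusted p = 8.82e-07) and Mest (adjusted p = 0.0496).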

How the results depend on the processing

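None of 189 values of the 9 genes changed direction where it was called under 13 alternatives of scaling, filter and fit or when each of the 36 replicates was left out. Of the 189, 28 lost a call and 15 gained one under at least 1 of the former, and 29 and 10 under at least 1 of the latter. Without the fold of 2, genes that changed over time went from 3 to 9 in A/J and in B6. A required fold of 1.5 took the called steps from 18 to 7 in A/J and from 22 to 7 in B6, strain differences over the shared ages from 5 to 0 and at single ages from 14 to 4, B6 E18.5 against A/J E19.5 from 4 to 0, and B6 E17.5 against A/J E18.5 from 6 to 2. Separate fits of the groups compared, which rest on fewer samples, gave 7 of the 14 strain differences at single ages and 1 for B6 E18.5 against A/J E19.5. The methods' two-way test with its p and fold threshold called 1 strain difference over the shared ages, Peg3; it called 3 at that p without the fold and 5 at a Benjamini-Hochberg p under 0.05 without the fold. With 1 replicate left out, genes changed over time numbered 3 to 4 in each strain, PN0 minus E15.5 8 to 9 in each, steps 16 to 19 in A/J and 16 to 22 in B6, strain differences 4 to 5 over the shared ages and 12 to 14 at single ages, interactions 3 to 5, B6 E18.5 against A/J E19.5 3 to 4 and B6 E17.5 against A/J E18.5 6 to 8. Same-numbered replicates did not in general deviate together (median r = -0.015, from -0.413 to 0.389, 30 of 198 pairs over 0.1), and they were not treated as pairs. Replicates of different numbers were not set beside them, so this check cannot settle whether some numbers pair samples. With the replicate block the interaction count went from 4 to 3 and the B6 steps from 22 to 21. The calls of Mest (E15.5 to E18.5 interaction, adjusted p = 0.055) and Plagl1 (B6 step into PN0, adjusted p = 0.0595) were then lost. The alternative of reading another probe set was not run because each gene had 1. The cause of these shifts was not tested.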
